A study of Mus musculus with 8 samples.

Results

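The genes described here are the 10 that encode the enzymes of O-GlcNAc cycling and of the hexosamine pathway that feeds it, chosen by name: Ogt, Oga, Gfpt1, Gfpt2, Gnpnat1, Pgm3, Uap1, Nagk, Gnpda1 and Gnpda2. All 10 were found among the 40840 genes of the RNA-seq tables, and all 10 were among the 19963 genes tested, without any of them being near the low-count limit. Myofibroblastic hepatic stellate cells (pMF-HSCs) are the collagen-secreting form that vitamin A-storing stellate cells of the liver take on culture plastic. They came from livers of male C57BL/6J mice aged 15 to 18 weeks, with no engineered allele named, and were sorted by their retinol autofluorescence before 7 days of culture in serum-containing medium. The control group (n = 4) then received vehicle (DMSO), and the OGTi group (n = 4) received OSMI-1, an inhibitor of the OGT enzyme, at 50 µM. Treatment lasted 24 h in both. The labels call the 4 cultures of a group biological replicates, the study's methods pair the control and OGTi cultures of one replicate number, and how many mice went into a culture is not given in the sources used here.

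O-GlcNAc is a single sugar that the enzyme OGT places on serine and threonine residues of nuclear and cytosolic proteins and that the enzyme OGA takes off again. The sugar donor, UDP-GlcNAc, is made from fructose phosphate and glutamine by the hexosamine pathway. GFAT, encoded by Gfpt1 or Gfpt2, performs its first and rate-limiting step, GNPNAT1 adds the acetyl group, PGM3 moves the phosphate and UAP1 joins the sugar to UDP. NAGK feeds free GlcNAc from breakdown back into the pathway, and the deaminases GNPDA1 and GNPDA2 return glucosamine phosphate to fructose phosphate. Because the drug acts on the OGT protein, the question put to these genes was whether the RNA of the cycle and of its supply route differed once that enzyme was inhibited.

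In short, Gfpt2 fell in OGTi cells to 0.466 times its control level and Uap1 rose 1.96-fold, and these were the 2 of 10 genes that passed the test, where 18.4% of all genes did. The Gfpt2 call held in all 13 alternative settings, whereas that of Uap1 was lost in 5 of them. Genes of the salvage and reverse steps (Nagk, Gnpda1 and Gnpda2) had higher scaled counts in all 4 pairs of cultures but did not pass, and in TPM Gnpda2 was higher in only some of them. Among all genes tested, 41.8% moved one way in all 4 pairs. Ogt RNA, the target's own message, did not pass either, and Oga had a lower mean in OGTi without passing.

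The Gfpt2, Gfpt1 and Uap1 promoters are shown because Gfpt2 and Uap1 carry the changes found and Gfpt1 is the second GFAT gene. Each window holds 300 bases around a RefSeq transcription start, most of them upstream of it. The sequences are RefSeq ones from a GRCm38.p6 table, re-placed by exact match on GRCm39, the build named for the deposited files, and each is written 5′ to 3′ on the strand of the gene. Capitals mark GACGTG or its reverse complement CACGTC, the core of the element bound by the stress factor XBP1.
Gfpt2, chr11:49684732-49685031, plus strand: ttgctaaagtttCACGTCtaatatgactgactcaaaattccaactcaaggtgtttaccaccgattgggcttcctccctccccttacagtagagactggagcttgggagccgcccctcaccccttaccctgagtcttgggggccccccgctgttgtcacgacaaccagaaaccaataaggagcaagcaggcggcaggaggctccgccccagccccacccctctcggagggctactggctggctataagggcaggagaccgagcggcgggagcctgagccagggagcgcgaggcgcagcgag
Gfpt1, chr6:87019578-87019877, plus strand: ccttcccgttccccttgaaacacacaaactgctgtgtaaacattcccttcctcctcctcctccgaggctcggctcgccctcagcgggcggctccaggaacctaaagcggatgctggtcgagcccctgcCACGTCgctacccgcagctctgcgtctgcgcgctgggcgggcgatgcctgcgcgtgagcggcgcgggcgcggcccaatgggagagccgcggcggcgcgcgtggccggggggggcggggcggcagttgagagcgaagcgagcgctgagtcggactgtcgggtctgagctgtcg
Uap1, chr1:170002484-170002783, minus strand: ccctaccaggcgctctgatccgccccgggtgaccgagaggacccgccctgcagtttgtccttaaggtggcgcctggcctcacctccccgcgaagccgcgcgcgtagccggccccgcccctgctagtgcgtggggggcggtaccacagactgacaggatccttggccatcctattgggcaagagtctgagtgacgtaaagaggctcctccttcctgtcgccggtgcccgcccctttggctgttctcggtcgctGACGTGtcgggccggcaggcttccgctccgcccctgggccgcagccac
Promoter windows were matched for 8 of the 10 genes. GACGTG, looked for on both strands after the windows had been read, was found in 4 of these 8 genes, namely Gfpt1, Gfpt2, Pgm3 and Uap1, and in 6.38% of all 32851 windows of 300 bases in the table. Since this motif was chosen from the same windows, and genes and windows are different units, these shares cannot be weighed against each other. In Uap1 and Pgm3 the match began 2 and 24 bases after the start site, and in Gfpt1 and Gfpt2 it began at -122 and -238. The other motifs searched, also on both strands, were the ATF4 core TGATGNAA, the full XBP1 element TGACGTGG, which contains GACGTG, and the E-box CACGTG. Each was present in 0 of the 8 genes, against 3.97%, 0.676% and 7.15% of all windows. A match describes the letters of the window and not the binding of a factor.

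The libraries held between 30068876 and 37372420 expected counts. The counts of the members lay between 235, for Oga in OGTi replicate 1, and 24156, for Gfpt2. Some libraries stood apart from the rest of their group. Among 8148 genes with a mean of at least 10 CPM (counts scaled to the library size), 157 were more than 4-fold below every other control library in control replicate 4, and 137 lay as far below their group in OGTi replicate 1, whereas the remaining libraries had 0 to 8 such genes. Against the rest of its group, OGTi replicate 1 was low for long genes, with a median difference of -0.57 (log2) for the longest quintile of genes and 0.60 for the shortest. In OGTi replicate 4 the trend ran the other way, with 0.185 for the longest and -0.382 for the shortest. OGTi replicate 4 had 23746 genes with a count, against 19035 to 20293 elsewhere. All 8 stellate cell and all 8 myofibroblast markers were above 1 TPM (a level scaled by transcript length and library) in every library, and Lrat and Pdgfrb of the former were called lower in OGTi. The summed stellate markers ranged from 235.9 to 412.3 TPM in control and from 161.6 to 235.0 TPM in OGTi. Summed endothelial markers (8 genes) ranged from 0.51 to 1.64 TPM in control and from 0.57 to 0.94 in OGTi, hepatocyte markers (8 genes) from 0.08 to 0.60 and from 0.57 to 1.67, and macrophage markers (8 genes) from 3.78 to 26.2 and from 2.22 to 15.2. Among the hepatocyte markers Hnf4a was at 0 in all libraries, and Cyp2e1, at most 1.20 TPM, was called higher in OGTi. Of 6 cholangiocyte markers only Krt19 was high, and it brought their sum to 87.0 to 139.2 TPM in control and 46.8 to 79.0 in OGTi. Krt19 was called lower in OGTi (log2 fold change -0.66, adjusted p = 0.0462). The part of these libraries and cells in the results below was not tested beyond the values given beside them. In bulk RNA, fewer cells of a type and less RNA per cell cannot be told apart.

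Before treatment effects, the levels of the 10 genes were compared per transcript length. Gfpt2 was the most abundant in control cells, at 354.5 ± 81.9 TPM (SD, n = 4), above 97.1% of all genes tested. Nagk, Gnpnat1 and Gnpda2 followed at 87.5 ± 11.6, 82.8 ± 14.5 and 80.0 ± 5.74 TPM (SD, n = 4), with ranges that overlapped. Pgm3 at 54.5 ± 3.23, Gnpda1 at 50.6 ± 2.48 and Ogt at 41.8 ± 5.26 TPM (SD, n = 4) overlapped from each gene to the next, although Gnpda1 exceeded Ogt in every control library. Below them, Uap1 at 31.3 ± 2.97, Gfpt1 at 12.0 ± 1.07 and Oga at 7.48 ± 0.559 TPM (SD, n = 4) were each apart from their neighbours. The RNA of the enzyme that removes O-GlcNAc was thus the lowest of the set, although still above 62.7% of all genes tested. In OGTi cells the order began with Gfpt2 at 131.8 ± 33.1 TPM and ended with Oga at 4.15 ± 1.69 TPM (SD, n = 4) again. All neighbours from Gfpt2 down to Gfpt1 overlapped there, and only Oga remained apart.

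**Figure D1:**
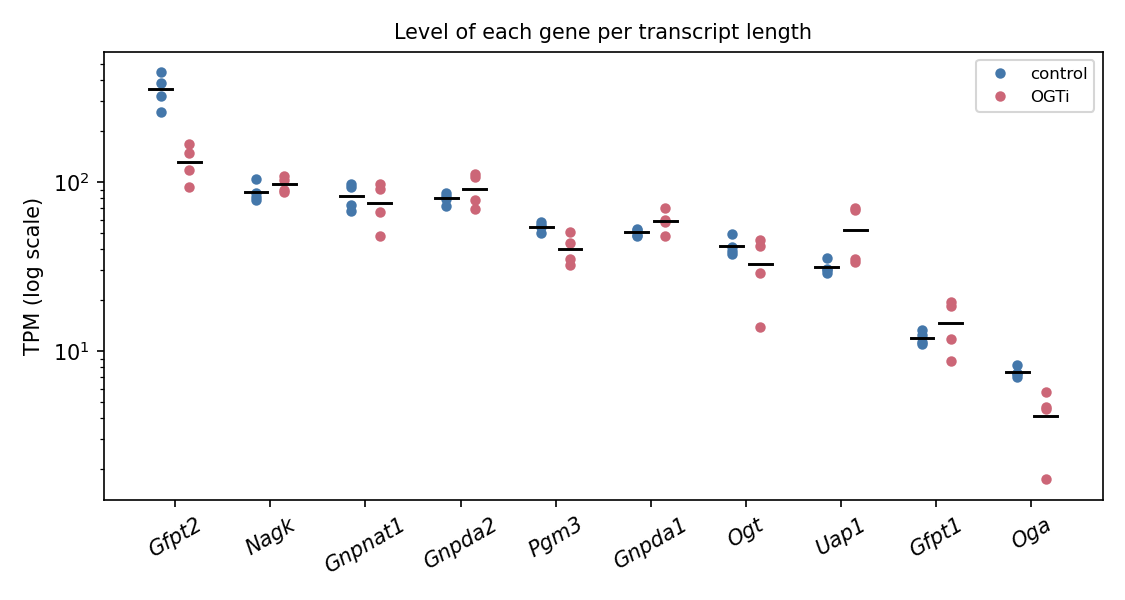
TPM of each gene on a log axis, with 4 control and 4 OGTi libraries as points and group means as black bars, ordered by the control mean. Gfpt2 stands above all other genes in control and joins Nagk and Gnpda2 in OGTi, while Oga is lowest in both groups.

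Over all genes, 18.4% of the 19963 tested were called changed in either direction by edgeR's quasi-likelihood test with a block for the replicate number (threshold 0.05 on the Benjamini-Hochberg adjusted p). Those higher in OGTi made up 8.13% and those lower 10.2%, a balance that turned with upper-quartile scaling (2051 higher and 1732 lower). Of the 10 members 2 were called, 1 in each direction, a share near this background. The median log2 fold change was 0.32 over the members and 0.0053 over all genes tested. The median absolute log2 fold change was 0.51 and 0.64, and the median SE was 0.22 and 0.35, respectively. Scaled counts (counts divided by the effective library size and multiplied by its mean) did not overlap between groups in 3 of 10 members and in 23.5% of all genes. All 4 pairs moved one way in 50% of the members and in 41.8% of all genes.

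**Figure D2:**
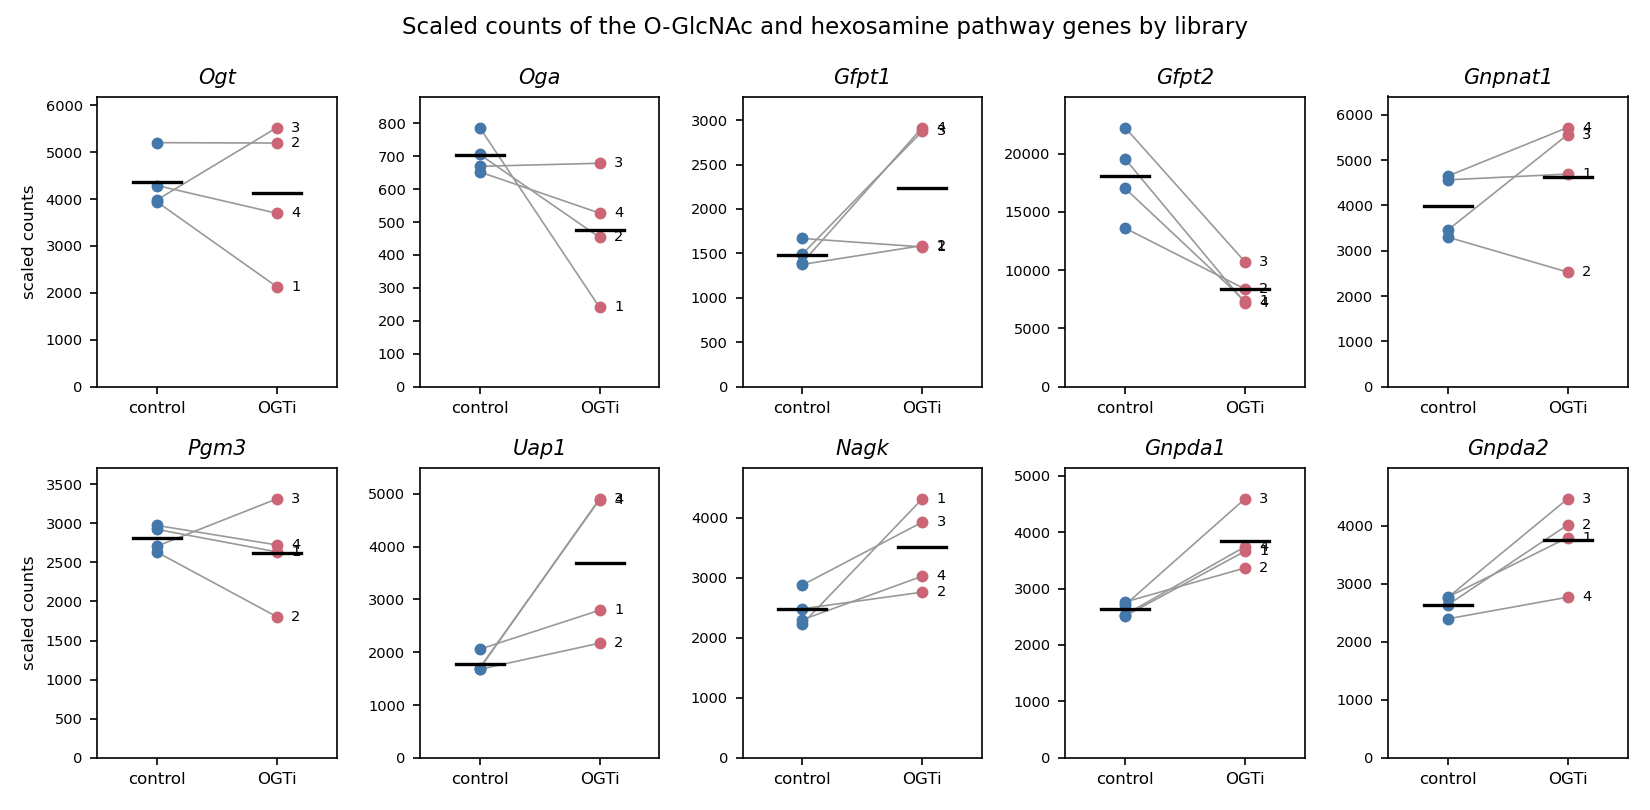
Scaled counts of each gene by library, with control in blue, OGTi in red, a line for each pair labelled with its replicate number, and group means as black bars. On this scale Gfpt2 falls and Uap1 rises in every pair without overlap (in TPM, Uap1 is lower in pair 1), while the 4 OGTi values of Ogt, Oga and Gfpt1 are spread widely.

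Ogt (chrX:100680557-100727963, plus strand, GRCm39) was compared first because its protein is the drug's target. Control replicates 1 to 4 held 3939.6, 5204.2, 3985.3 and 4289.4 scaled counts, and OGTi replicates 1 to 4 held 2129.2, 5195.0, 5525.2 and 3697.5. OGTi replicate 1 was below all control libraries and replicate 3 above all of them, so the groups overlapped. The differences within pairs (OGTi minus control, log2 CPM) were -0.89, -0.0026, 0.47 and -0.21. The log2 fold change was -0.16 ± 0.24 (SE), with a 95% interval of -0.70 to 0.38 and an adjusted p of 0.714. Without replicate 1 its log2 fold change was 0.086 (adjusted p = 0.807). Ogt belongs to the longest quintile of genes, the class that was low in OGTi replicate 1, and its value in that library was 1.15 log2 units below the mean of the other OGTi libraries. With each library's trend on length removed the log2 fold change was -0.019, whereas it was -0.35 on library totals alone (adjusted p = 0.351) and -0.47 in limma on log2(TPM + 1) (adjusted p = 0.240).

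Oga (chr19:45738688-45772276, minus strand, GRCm39) held 787.0, 705.3, 669.4 and 652.3 scaled counts in control replicates 1 to 4 and 240.7, 453.4, 678.6 and 527.2 in OGTi. Every OGTi library but replicate 3 was below all control libraries, and replicate 3 lay within the control range. Its log2 fold change was -0.65 ± 0.30 (SE), with a 95% interval of -1.31 to 0.014 and an adjusted p of 0.166. Pair 1 held the largest difference, at -1.70, against -0.64, 0.020 and -0.31 in pairs 2 to 4. Without replicate 1 the value was -0.31 (adjusted p = 0.395), and with the length trend removed it was -0.50 (adjusted p = 0.179). It was larger without replicate 3 (-0.88, adjusted p = 0.156), on library totals alone (-0.84, adjusted p = 0.0703) and in limma on log2(TPM + 0.1) (-0.95, adjusted p = 0.0899). Per transcript length Oga was lower in all 4 pairs, from 6.99 to 8.28 TPM in control and from 1.74 to 5.71 TPM in OGTi.

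The ratio of Oga to Ogt, remover over writer, was read as a description with no test. It was 0.222, 0.150, 0.186 and 0.169 in control replicates 1 to 4 (TPM over TPM) and 0.125, 0.0987, 0.136 and 0.159 in OGTi. It was lower in OGTi in each pair, with a mean difference of -0.49 ± 0.31 log2 units (SD, n = 4), and the groups overlapped. The difference was smallest in pair 4, at -0.085. Both genes had their lowest value in OGTi replicate 1. By likeness of pattern over the 8 libraries (Pearson's r of log2 CPM, 8148 candidate genes), the genes closest to Ogt were Pik3c3 (0.966), Pcyox1 (0.957) and Slc37a3 (0.948). Those closest to Oga were Vps4b (0.983), Tex10 (0.982) and Tnfaip3 (0.977). The libraries carry the treatment, the pairs and the length trend at once, so these values describe only a shared profile. The messages of Ogt and Oga are also known to be controlled by introns that stay in the RNA, which gene-level counts do not resolve and which were not analysed here.

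Of the GFAT genes, Gfpt2 (chr11:49684950-49729456, plus strand, GRCm39) is the form often found in connective tissue and nerve cells, and Gfpt1 (chr6:87019801-87069179, plus strand) the more widely expressed one. Gfpt2 held 17027.9, 13610.3, 22243.2 and 19554.7 scaled counts in control replicates 1 to 4 and 7362.4, 8388.8, 10725.9 and 7191.6 in OGTi. Every OGTi library was below every control library. The log2 fold change was -1.10 ± 0.20 (SE), with a 95% interval of -1.54 to -0.67 and an adjusted p of 0.00417. Pairs 1 to 4 differed by -1.21, -0.70, -1.05 and -1.44 log2 CPM. The call held in all 13 alternatives, with log2 fold changes from -1.43 to -0.97 and adjusted p from 1.4e-05 to 0.0269.

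Gfpt1 did not pass the test. It held 1668.5, 1376.2, 1492.6 and 1396.1 scaled counts in control replicates 1 to 4 and 1573.1, 1588.0, 2874.6 and 2916.4 in OGTi. OGTi replicates 3 and 4 lay far above all control libraries, whereas replicates 1 and 2 were within the control range. For Gfpt1 the log2 fold change was 0.53 ± 0.25 (SE), with a 95% interval of -0.024 to 1.09 and an adjusted p of 0.175. Leaving out replicate 1, 2, 3 or 4 gave 0.74, 0.67, 0.39 and 0.37. In limma on log2(TPM + 1) the value for Gfpt1 was 0.20 (adjusted p = 0.610), and in pair 1 its TPM went from 13.4 in control to 8.70 in OGTi. Gfpt1 belongs to the longest quintile of genes, the class that was low in OGTi replicate 1. Against the mean of the other OGTi libraries it was -0.59 in replicate 1 and -0.57 in replicate 2 (log2). With the length trend removed its log2 fold change was 0.66 (adjusted p = 0.0665), and without replicate 1 the adjusted p was 0.0611.

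Because the paralogs encode the same activity, their balance was followed in each library, again with no test. The ratio of Gfpt2 to Gfpt1 was 24.2, 23.5, 36.3 and 34.1 in control replicates 1 to 4 (TPM over TPM) and 10.7, 12.6, 9.12 and 6.04 in OGTi. No OGTi library reached the lowest control value, and the mean difference within pairs was -1.64 ± 0.74 log2 units (SD, n = 4). The summed TPM of both genes was 366 ± 82.2 in control and 146 ± 35.8 in OGTi (SD, n = 4). Gfpt2 made up 96.6% ± 0.729 of that sum in control and 90.0% ± 2.99 in OGTi (SD, n = 4), and so remained the main GFAT message in every library.

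Uap1 (chr1:169967484-170002556, minus strand, GRCm39) was the gene of the set that rose. It held 2057.4, 1677.0, 1690.6 and 1704.4 scaled counts in control replicates 1 to 4 and 2795.9, 2172.0, 4903.9 and 4889.8 in OGTi. The groups did not overlap, and OGTi replicates 3 and 4 were far above replicates 1 and 2. The log2 fold change was 0.97 ± 0.27 (SE), with a 95% interval of 0.38 to 1.56 and an adjusted p of 0.0299. Pairs 1 to 4 differed by 0.44, 0.37, 1.54 and 1.52 log2 CPM, so pairs 3 and 4 carried most of the change. Leaving out replicate 3 (0.78, adjusted p = 0.160) or replicate 4 (0.79, adjusted p = 0.126) ended the call. It missed the threshold on library totals alone (0.77, adjusted p = 0.0519) and in limma on log2(TPM + 1) (0.63, adjusted p = 0.127). In TPM, control replicates 1 to 4 stood at 35.7, 29.1, 30.4 and 30.1 and OGTi replicates at 33.6, 35.1, 68.1 and 70.4, so on that scale pair 1 was lower in OGTi. Over all alternatives its adjusted p ranged from 0.00379 to 0.160.

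The profile of Uap1 over the 8 libraries was like that of Gfpt1. Pearson's r of their log2 CPM was 0.958, the highest of all pairs of members, and both were high in OGTi replicates 3 and 4. The lowest r, -0.762, was that of Gfpt2 with Gnpda1. These libraries share treatment and culture, and the values are a description.

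The steps between GFAT and UAP1 did not pass the test. Gnpnat1 (chr14:45613781-45690012, minus strand, GRCm39) ranged from 3299.5 to 4645.9 scaled counts in control and from 2528.3 to 5715.6 in OGTi, with the control range inside the OGTi one. Its log2 fold change was 0.16 ± 0.22 (SE), with a 95% interval of -0.33 to 0.66 (adjusted p = 0.677). Pgm3 (chr9:86424316-86454680, minus strand) ranged from 2628.5 to 2970.4 in control and from 1803.5 to 3310.5 in OGTi, again with the control values inside. Its log2 fold change was -0.13 ± 0.21 (SE), with a 95% interval of -0.60 to 0.34 (adjusted p = 0.726). OGTi replicate 2 was the lowest library for both genes and replicate 3 was high for both. For neither gene was a direction kept in all settings, since Gnpnat1 was below 0 on library totals alone (-0.034), on the TPM scale (-0.17) and without replicate 3 (-0.013), and Pgm3 was above 0 without replicate 2 (0.032). Pgm3 went further down on library totals alone (-0.33, adjusted p = 0.309) and in limma on log2(TPM + 1) (-0.44, adjusted p = 0.0869), and its TPM was lower in OGTi in all 4 pairs.

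**Figure D3:**
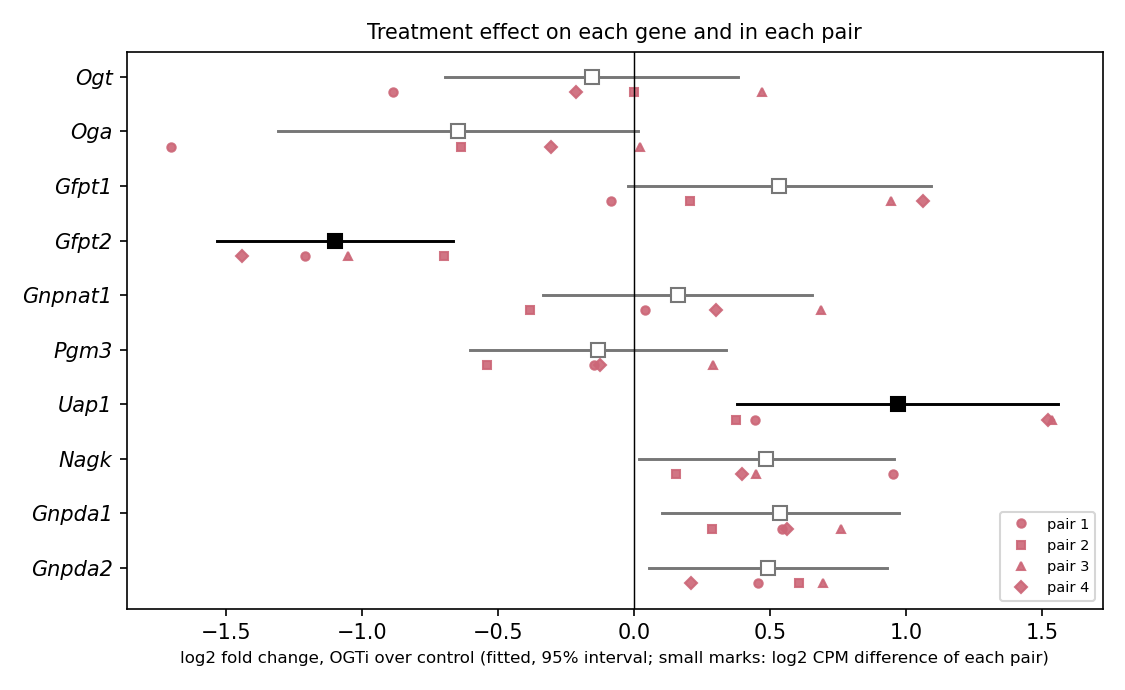
Fitted log2 fold change of each gene (squares, with 95% interval, filled where the adjusted p passed 0.05) and the log2 CPM difference of each pair (small red marks). Filled squares are Gfpt2 at -1.10 and Uap1 at 0.97, while the small marks of Nagk, Gnpda1 and Gnpda2 are all above 0 on this scale (in TPM, Gnpda2 is lower in pairs 1 and 4) and those of Ogt lie on both sides.

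The salvage kinase and the reverse-step deaminases had differences above 0 in every pair on the log2 CPM scale. Nagk (chr6:83771957-83781000, plus strand, GRCm39) held 2231.7, 2484.3, 2879.4 and 2300.8 scaled counts in control replicates 1 to 4 and 4314.6, 2760.5, 3926.2 and 3026.7 in OGTi. Only control replicate 3 reached into the OGTi range. Its log2 fold change was 0.49 ± 0.21 (SE, adjusted p = 0.143). It belongs to the shortest quintile of genes, the class that was high in OGTi replicate 1, where its pair difference was 0.95 against 0.15, 0.45 and 0.40 in pairs 2 to 4. With the length trend removed its log2 fold change was 0.35 (adjusted p = 0.141), and in limma on log2(TPM + 1) it was 0.15 (adjusted p = 0.455).

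Gnpda1 (chr18:38460588-38472228, minus strand, GRCm39) held 2513.3, 2761.3, 2709.0 and 2535.9 scaled counts in control replicates 1 to 4 and 3660.2, 3363.6, 4588.3 and 3740.0 in OGTi. Its groups did not overlap. The log2 fold change was 0.54 ± 0.20 (SE), with a 95% interval of 0.10 to 0.97, and the adjusted p of 0.0858 missed the threshold. It passed with DESeq2 (0.58, adjusted p = 0.0205), with upper-quartile scaling (0.66, adjusted p = 0.0475) and with the length trend removed (0.53, adjusted p = 0.0416). In the other alternatives the adjusted p was up to 0.358.

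Gnpda2 (chr5:69729718-69749717, minus strand, GRCm39) ranged from 2396.2 to 2770.1 scaled counts in control and from 2768.2 to 4462.5 in OGTi. The lowest OGTi value, in replicate 4, was just under the highest control value. Its log2 fold change was 0.49 ± 0.20 (SE, adjusted p = 0.116), and it passed with DESeq2 alone (0.54, adjusted p = 0.0316, in a range of 0.0316 to 0.505). With the length trend removed the value for Gnpda2 was 0.37 (adjusted p = 0.184). The ratio of Gnpda2 to Gnpda1 was 1.58 ± 0.110 in control and 1.56 ± 0.288 in OGTi (TPM over TPM, SD, n = 4), and its mean difference within pairs was -0.044 ± 0.27 log2 units (SD, n = 4). In limma on log2(TPM + 1) the log2 fold changes were smaller, 0.21 for Gnpda1 and 0.16 for Gnpda2. In TPM, Gnpda2 went from 82.7 to 78.6 in pair 1 and from 72.6 to 68.9 in pair 4, and so was lower there.

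**Figure D4:**
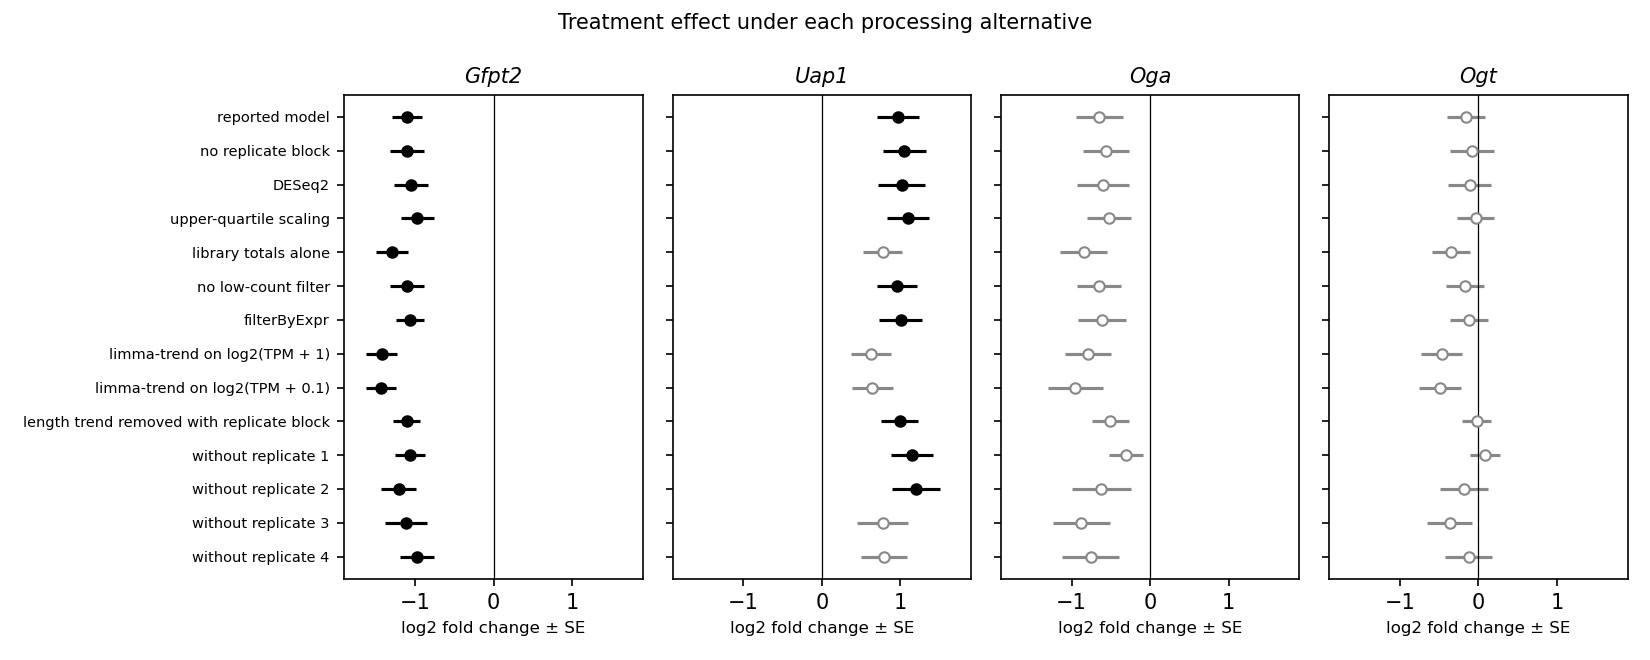
Log2 fold change with its SE for Gfpt2, Uap1, Oga and Ogt in the reported model and in 13 alternatives, with filled points where the adjusted p passed 0.05. Gfpt2 is filled throughout, Uap1 is open in 5 alternatives, and Oga and Ogt are open throughout.

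A further readout was the length that the deposited tables give for each gene in each library, a mean over its annotated transcripts weighted by their estimated abundance, which moves when the estimated mix of transcripts does. For Gfpt1 and Ogt it was nearly constant, with means of 6246.1 and 5309.4 bases in control and 6246.1 and 5308.4 in OGTi. Oga ranged from 4797.1 to 4832.3 bases in control and from 4724.1 to 4842.4 in OGTi, with the extremes in OGTi replicates 2 and 1. The length of Gfpt2 peaked at 2858.1 bases in OGTi replicate 1 and lay between 2682.8 and 2764.3 bases in the other libraries. Nagk, with 11 annotated transcripts, had a greater length in OGTi in all 4 pairs without overlap. Its mean was 1611.1 ± 3.12 bases in control, and in OGTi it was 1620.5 ± 5.76 bases (SD, n = 4). The mean difference within pairs was 9.41 ± 8.74 bases (SD, n = 4). All these lengths were compared with no test, and the share of all genes whose lengths behave like that of Nagk was not computed. The difference therefore cannot be called particular to Nagk.

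Genes around the set were read from 3 lists. Of 13 tested genes of other amino sugar turnover, 1 was called higher and 0 lower, where 18.4% of all genes were called, and the median log2 fold change was 0.15. That gene was Cmas, the enzyme that activates sialic acid, which stood at 5.63 ± 1.20 TPM in control and 9.78 ± 2.91 in OGTi (SD, n = 4). It rose 2.14-fold (adjusted p = 0.00925), a call lost without replicate 3. Amdhd2, the deacetylase that opposes GNPNAT1 in the pathway, did not pass (log2 fold change 0.74 ± 0.25, SE, adjusted p = 0.0678). With DESeq2 or upper-quartile scaling 4 genes of this list were called, all higher, and with limma on TPM 1 was called higher and 2 lower.

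Of 12 tested genes of UDP-GlcNAc transport and use, 1 was called higher and 5 lower, where 8.13% and 10.2% of all genes were. Their median log2 fold change was -0.50 against 0.0053 over all genes. Eogt, which places O-GlcNAc on secreted proteins inside the endoplasmic reticulum, held 11.3, 10.3, 12.6 and 12.1 TPM in control replicates 1 to 4 and 1.11, 2.36, 1.68 and 2.12 in OGTi. The log2 fold change of -2.39 ± 0.24 (SE, adjusted p = 0.000316) was larger than that of any of the 10 members. Has2, a hyaluronan synthase, fell from 1.31 ± 0.719 to 0.0525 ± 0.0685 TPM (SD, n = 4, adjusted p = 0.00559), both low levels. Gnptab, which builds the lysosomal sorting tag, and the nucleotide sugar transporter gene Slc35d2 fell by 1.11 and 0.95 on the log2 scale (adjusted p = 0.0180 and 0.0222). The other called genes, named here after their values were seen, were Alg13, lower with -0.84, and the low hyaluronan synthase gene Has1, higher with 1.94 on the log2 scale. For Has1 the adjusted p was 0.0325, the groups overlapped and counts ranged from 1 to 70. Its call was lost with no replicate block, on library totals alone and with any replicate left out. Without replicate 1, 3 or 4, only 2 genes of this list were called. Over all genes the same fits called 3124, 1905 and 1956, against 3666 with all replicates.

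Of 19 tested genes of substrate supply, 2 were called higher and 3 lower, which is near the 18.4% called over all genes, and their median log2 fold change was 0.068. Glul, the glutamine synthetase gene, rose from 25.6 ± 3.12 to 52.7 ± 11.9 TPM (SD, n = 4). Its log2 fold change was 1.35 ± 0.21 (SE, adjusted p = 0.00227). Slc2a1, the glucose transporter gene, rose by 0.86 on the log2 scale (adjusted p = 0.0102). Hk1, which encodes a hexokinase, and Dhodh, an enzyme of UMP synthesis, fell by 1.08 and 1.21 on the log2 scale (adjusted p = 0.0226 and 0.00639). Hk2, another hexokinase gene named after its values were seen, was also lower, with -0.75. The count depended on the fit, with 2 called without the replicate block or without replicate 3, 3 without replicate 4, 6 with no low-count filter, and 7 with DESeq2, library totals alone or limma on TPM.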

How the data were processed

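RNA-seq of 4 control and 4 OGTi pMF-HSC cultures was analysed. Per the labels, strand-specific libraries were made after oligo dT enrichment. The submitters' processing notes name Bowtie2 2.3.5.1, RSEM 1.3.1, DESeq2 1.36.0 and mm39. The authors deposited expected counts, TPM values and transcript lengths in bases (other values) for each gene and library. GENCODE is the annotation stated in the methods, but the tables list RefSeq transcripts. A table of the authors' own comparison (counts, fold changes and p-values) was not used. The tables held 0 further columns with values of single samples.

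Counts were rounded to integers before testing. Only Uap1 in OGTi replicate 4 had a fractional count among the members. Genes with a total of at least 10 counts were fitted with edgeR 4.0.16 (R 4.3.3, TMM scaling, glmQLFit and glmQLFTest) with the replicate number as a block. Benjamini-Hochberg adjustment covered all 19963 genes, the threshold was 0.05, and the fit was tested on simulated data. A standard error is the log2 fold change divided by the root of F, and intervals use the t quantile of the fit. The block follows the study's stated pairing. Deviations of same-numbered libraries correlated at 0.160, 0.224, 0.105 and 0.318 across genes, against -0.312 to 0.208 for other numbers. Alternatives used DESeq2 1.42.0, limma 3.58.1 on TPM, other scalings and filters, removal of length trends, and omission of each replicate.

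The named genes were all 10 members, at most 4 genes of lowest p from each further list, and the 3 genes most like Ogt and Oga. Alg13, Has1 and Hk2 were named outside this rule, after their values were seen. Members and lists were chosen with earlier results of these data known. Locations are from GENCODE vM39 on GRCm39. Depth was 30068876 to 37372420 expected counts, and since reads carried no molecular identifiers, they need not stand for separate molecules.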

Additional observations from a re-analysis of the deposited data

Results flagged for a closer look

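Scaled counts and gene-level lengths of the 10 genes gave 40 sets of 4 values. In 3 of these sets 1 library lay far from its group, where chance would give about 2. Uap1 held 2057.4 scaled counts in control replicate 1, against 1677.0 to 1704.4 in the other controls. OGTi replicate 4 had a Gnpda1 length of 2797.9 bases, while its group otherwise spanned 2755.8 to 2761.8. In the same library the Gnpda2 length was 1835.9 bases, while the rest of its group spanned 1838.7 to 1838.9.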

How the results depend on the processing

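Gfpt2 kept its direction and its call in all 13 alternatives. Oga, Gfpt1, Nagk, Gnpda1 and Gnpda2 kept their direction in all 13, and Gnpda1 and Gnpda2 passed where stated in the report. The number of members called was 2 with no replicate block, 4 with DESeq2, 3 with upper-quartile scaling or the length trend removed, and 1 with library totals alone or limma on TPM (1 or 0.1 added), and 1 to 2 with a replicate left out. Over all genes the number called also differed between settings, from 1905 without replicate 3 to 4859 with DESeq2. Uap1 had 0.77 with library totals alone and 0.63 or 0.64 with limma on TPM with 1 or 0.1 added, and from 0.78 to 1.20 without one replicate. Gnpda1 had 0.58 with DESeq2, 0.66 with upper-quartile scaling and 0.53 with the length trend removed, and Gnpda2 had 0.54 with DESeq2. Gnpnat1 changed sign with library totals alone (-0.034) and with limma on TPM (-0.17 with 1 added, -0.17 with 0.1 added). With a replicate left out, Ogt ranged from -0.37 to 0.086, Gnpnat1 from -0.013 to 0.37 and Pgm3 from -0.27 to 0.032. The median of all genes was 0.13 with upper-quartile scaling, 0.14 with no low-count filter, -0.19 with library totals alone and -0.10 or -0.24 with limma on TPM, and the cause of the shifts in members was not tested.

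Over all genes, 3666 were called (44.3% of them higher), 2991 with no replicate block, and 1905 to 3124 with a replicate left out (1905 without replicate 3, 1956 without replicate 4), with fewer samples in each fit. More were called with DESeq2 (4859), limma on TPM (4651 with 1 added, 4709 with 0.1 added), no low-count filter (4555), library totals alone (4167), the length trend removed (4097), upper-quartile scaling (3783) and edgeR's own expression filter (3683). The share of higher calls was 54.2% with upper-quartile scaling, which turned the balance to 2051 higher and 1732 lower, 30.1% with library totals alone and 25.7% or 26.2% with limma on TPM. Of other amino sugar genes, 2 were called with no replicate block, 4 with DESeq2 or upper-quartile scaling, 3 with no low-count filter, limma on TPM (either amount added) or the length trend removed, and 0 to 2 with a replicate left out. Of transport and use genes, 2 to 4 were called with a replicate left out and 4 with no replicate block. The number was 5 with upper-quartile scaling, and 7 or 8 with limma on TPM with 1 or 0.1 added. With no replicate block, library totals alone or any replicate left out, 0 were called higher, so the Has1 call was lost there. Of substrate supply genes, 2 were called with no replicate block and 2 to 4 with a replicate left out.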
